A study of Mus musculus with 9 samples.

Results

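Fatty acid synthesis and desaturation were followed through 10 genes, Acly, Acaca, Fasn, Me1, Elovl6, Elovl5, Scd1, Scd2, Fads1 and Fads2, which were chosen by name, with 1 array probe set per gene (the one with the highest mean over 9 arrays). All 10 were among the 19938 genes measured. The cells were stromal cells sorted from livers of C57BL/6 mice in which 1 allele of Cxcl12 carries the red fluorescent protein DsRed (genotype Cxcl12DsRed/+). They were positive for DsRed and negative for CD45 and Ter119, markers of blood cells. The livers came from embryos at E15.5 (age in days of gestation) and from pups at P5 and P10 (days after birth), with 3 arrays per stage, and every stage carried the same genotype. The study's design text calls the arrays of a stage independent replicates. Since no label says whether each array stands for its own animal or for a pool, p-values may cover technical spread alone, and a batch that followed stage cannot be told apart from stage.

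Fatty acids are built in the cytosol from citrate exported by mitochondria. Acly splits the citrate into acetyl-CoA, Acaca carboxylates this to malonyl-CoA, and Fasn joins the units into palmitate with reducing power (NADPH) that Me1 helps to supply. Elovl6 then lengthens palmitate, and Scd1 and Scd2, which are stearoyl-CoA desaturases, add the first double bond to give monounsaturated fatty acids such as oleate. Fads1, Fads2 and Elovl5 act on another substrate, the essential fatty acids of the diet, which they convert to long polyunsaturated fatty acids. In liver these genes are known targets of the transcription factors SREBP-1c (from Srebf1), ChREBP (from Mlxipl) and LXR. In mice Scd1 is the main desaturase of adult liver, and Scd2 is expressed in brain and in many tissues before birth.

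Values are log2 signals, so a difference of 1 is 2-fold, and they are set only against other values of the same gene, since signals of different probe sets share no scale. Array medians lay between 6.22 and 6.45 and followed stage, at 6.44 to 6.45 for E15.5, 6.27 to 6.36 for P5 and 6.22 to 6.26 for P10. All 10 genes were above percentile 30 of the array (5.13 to 5.31) on all 9 arrays. The label of the sort was checked by markers. Lrat, the retinol esterifying enzyme of hepatic stellate cells, averaged 10.68 in E15.5 cells, 8.24 in P5 cells and 7.72 in P10 cells, and in such bulk samples fewer cells of a type and less RNA per cell cannot be told apart. Alb, the albumin gene of hepatocytes, averaged 13.14 in E15.5 cells, 13.20 in P5 cells and 13.13 in P10 cells and was thus high at each stage, in cells sorted as stroma. On P5 arrays 2 and 3 the mean log2 signal of 15 sinusoidal endothelial markers was 7.97 and 8.28, against 6.59 to 7.27 on the other 7 arrays. Values without these 2 arrays, an omission chosen after seeing the data, are given where a call ended.

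The 10 genes did not all change in the same direction between stages. No stage between E15.5 and P5 was measured, so whether changes began before or after birth is not known. The genes that make monounsaturated fatty acids (Elovl6, Scd1 and Scd2) were lower at P5 and P10 than at E15.5. Fads1 and Fads2, of the polyunsaturated branch, were higher. The core genes Acly, Acaca and Fasn differed by 1.0 log2 unit at most between stages. Fads1 (0.90 at P5 and 0.64 at P10) and Scd1 at P10 (-0.98) differed from E15.5 by no more than this, so size does not set the core genes apart from them. Genes were called at an adjusted p under 0.05 (limma, Benjamini-Hochberg over all genes). At P5 against E15.5, 6 of 10 were called, where 35.6% of all genes were. Fads1 and Fads2 rose (17.9% of all genes rose), and Fasn, Elovl6, Scd1 and Scd2 fell (17.7% of all genes fell). At P10 against E15.5, 7 of 10 were called, where 38.7% of all genes were. Me1, Elovl5, Fads1 and Fads2 rose (20.1% of all genes), and Elovl6, Scd1 and Scd2 fell (18.6%). At P10 against P5, Elovl6 and Scd2 fell (2.89% of all genes) and 0 rose (2.76%). These 2 of 10 compare with 5.65% of all genes. The arrays of the compared stages did not overlap for 7 of 10 genes at P5 against E15.5 (45.2% of all genes), for 8 at P10 against E15.5 (51.7%) and for 6 at P10 against P5 (20.2%). With P5 array 1 as the lone P5 array, which is then assumed to vary like the arrays of the other stages, 4 were called at P5 against E15.5 and 1 at P10 against P5. The median difference of the 10 genes was -0.04 at P5 against E15.5 and 0.22 at P10 against E15.5, beside 0.03 and 0.02 over all genes, so the medians hide a range from -3.46 to 1.56 and from -4.07 to 1.08. In a test over all 3 stages (limma, moderated F), 7 of 10 were called, where 38.3% of all genes were. The other 3 were Acly (adjusted p = 0.076), Acaca (adjusted p = 0.0586) and Elovl5 (adjusted p = 0.052).

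**Figure D1:**
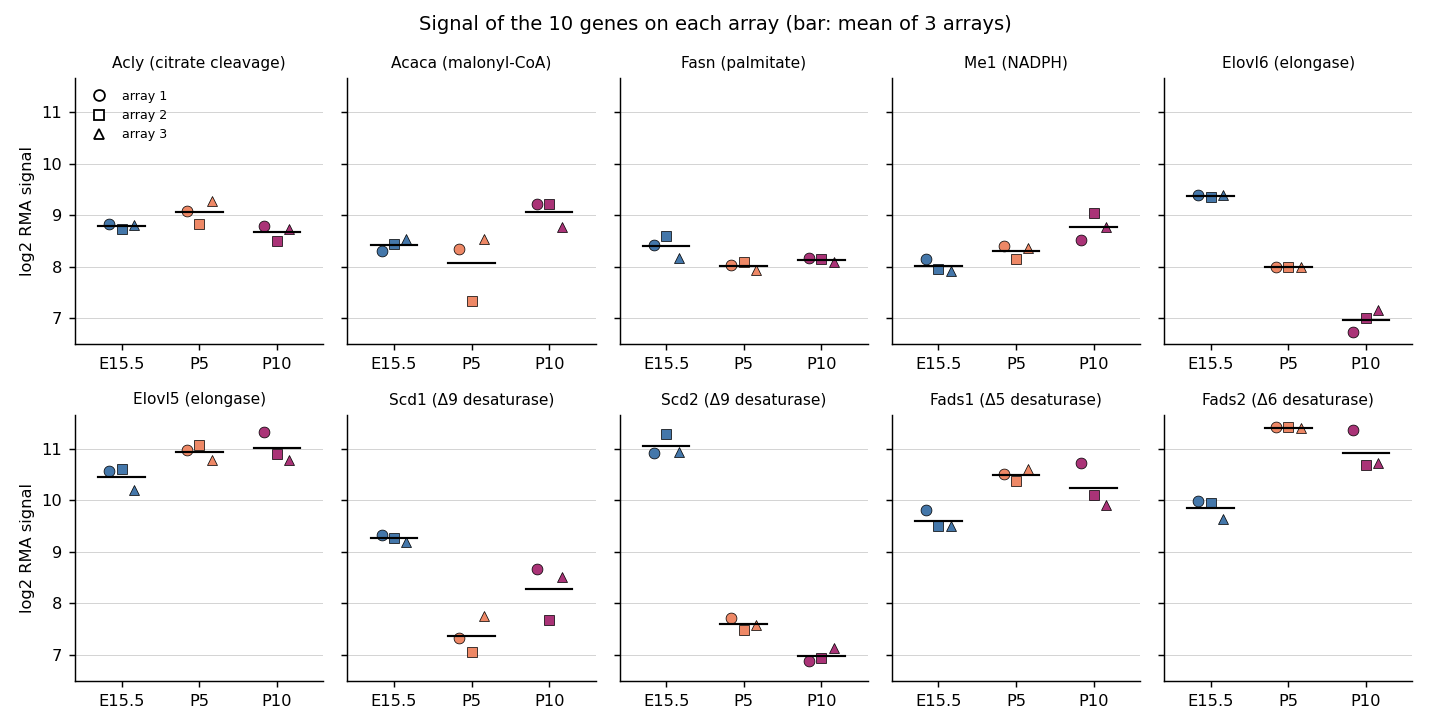
The log2 RMA signal of each gene on each of the 9 arrays, by stage, with the stage mean as a bar and the array number as the marker shape. Scd2 lies at 10.92 to 11.29 at E15.5 and under 8 on all postnatal arrays, Elovl6 steps down at each stage, and Fads2 is higher on all postnatal arrays than on any E15.5 array.

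**Figure D2:**
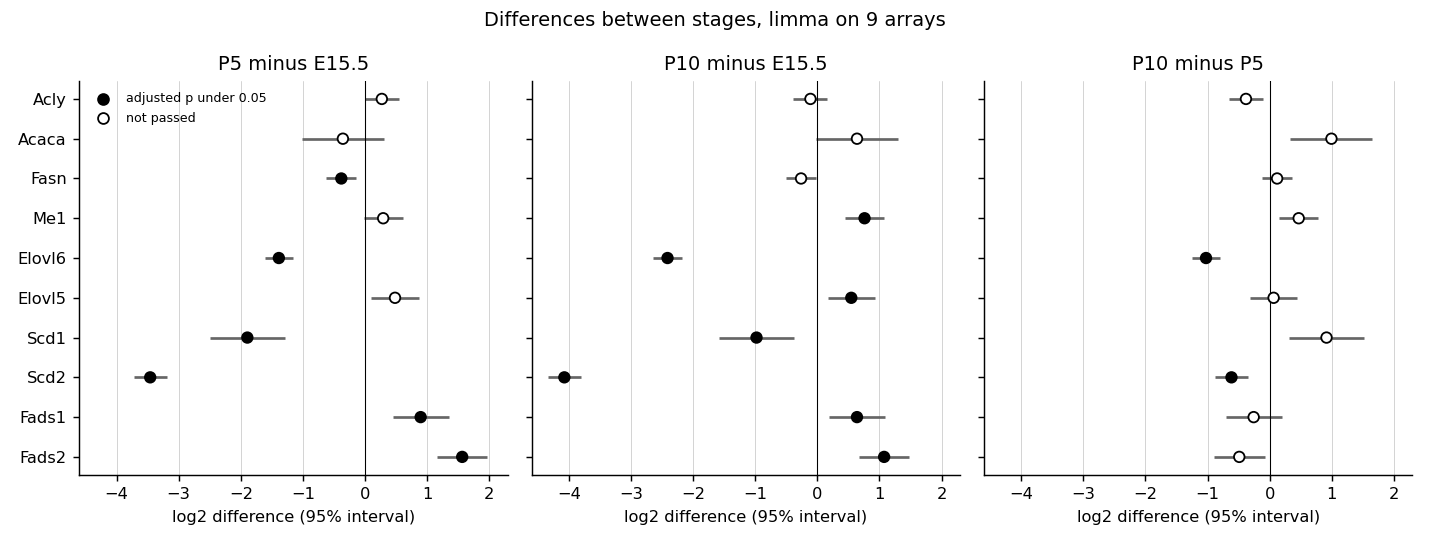
Log2 difference of each gene for the 3 pairs of stages, with 95% intervals from limma. Filled points passed an adjusted p of 0.05. Elovl6 and Scd2 are filled and below 0 in all 3 panels, and Fads1 and Fads2 are filled and above 0 in the first 2.

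Acly, ATP citrate lyase, gave 8.82, 8.74 and 8.80 at E15.5, 9.08, 8.82 and 9.27 at P5 and 8.80, 8.51 and 8.72 at P10. The P5 arrays lay above the P10 arrays but reached down to the E15.5 level. The differences were 0.27 ± 0.12 at P5 against E15.5 (± SE, adjusted p = 0.119) and -0.38 ± 0.12 at P10 against P5 (adjusted p = 0.119), and neither passed. Both passed when P5 array 2 was left out, at 0.39 (adjusted p = 0.0248) and -0.50 (adjusted p = 0.0485). The 95% interval at P10 against E15.5 was -0.39 to 0.16.

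Acaca, acetyl-CoA carboxylase 1, gave 8.31, 8.44 and 8.53 at E15.5, 8.34, 7.33 and 8.53 at P5 and 9.22, 9.21 and 8.77 at P10. All 3 P10 arrays were above all others, and P5 array 2 was far below the other P5 arrays. The differences were 0.64 ± 0.29 at P10 against E15.5 (adjusted p = 0.122) and 1.00 ± 0.29 at P10 against P5 (adjusted p = 0.0938). The gene has another probe set, of lower signal, with 6.81, 7.05 and 6.53 at E15.5, 6.79, 6.40 and 6.78 at P5 and 7.49, 7.93 and 7.29 at P10. There the same 2 differences were 0.77 (adjusted p = 0.0138) and 0.92 (adjusted p = 0.0363), so the call for Acaca at P10 depended on the probe set. Without P5 array 2 the first probe set passed too at P10 against E15.5, at an unchanged 0.64 and with an adjusted p of 0.00724, and without P5 array 3 it passed at P10 against P5 (1.23, adjusted p = 0.0485).

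Fasn, fatty acid synthase, gave 8.43, 8.60 and 8.17 at E15.5, 8.02, 8.09 and 7.94 at P5 and 8.17, 8.15 and 8.09 at P10. Its 3 P5 arrays were below its 3 E15.5 arrays, whereas P10 overlapped with E15.5. It fell at P5 by 0.38 ± 0.10 on the log2 scale, 1.3-fold lower than at E15.5 (adjusted p = 0.0204). This small difference did not pass when E15.5 array 1, E15.5 array 2 or P5 array 3 was left out (-0.37, -0.28 and -0.34, adjusted p from 0.0538 to 0.063), nor in a fit of the 2 stages alone (adjusted p = 0.0551), nor with P5 array 1 as the lone P5 array (-0.37, adjusted p = 0.137). At P10 against E15.5 it was -0.26 ± 0.10 (adjusted p = 0.0832), which passed when E15.5 array 3 was left out (-0.38, adjusted p = 0.00786).

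Me1, the cytosolic malic enzyme, gave 8.16, 7.96 and 7.91 at E15.5, 8.40, 8.15 and 8.36 at P5 and 8.51, 9.04 and 8.76 at P10. The P10 arrays were above all others. Me1 rose at P10 by 0.76 ± 0.14, 1.69-fold over E15.5 (adjusted p = 0.00228), and its other probe set gave 0.76 too (adjusted p = 0.0128). At P5 against E15.5 the difference was 0.29 ± 0.14 (adjusted p = 0.144), and at P10 against P5 it was 0.47 ± 0.14 (adjusted p = 0.1), which passed when P10 array 1 was left out (0.60, adjusted p = 0.0478).

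The promoters of 3 genes are shown from RefSeq (GRCm38.p6), 250 bases up to the transcription start, 5′ to 3′ on the strand of the gene. They are those of the elongase gene Elovl6, which fell, and of the elongase gene Elovl5 and the desaturase gene Fads2, which both rose at P10. RefSeq entries were found for 7 of the 10 genes. Capitals mark matches on either strand to CCAAT (the NF-Y box), GGGCGG (the Sp1 box), CACGTG (an E-box) and TCACNCCAC (a sterol response element).
Elovl6 (chr3:129532136-129532385, plus strand): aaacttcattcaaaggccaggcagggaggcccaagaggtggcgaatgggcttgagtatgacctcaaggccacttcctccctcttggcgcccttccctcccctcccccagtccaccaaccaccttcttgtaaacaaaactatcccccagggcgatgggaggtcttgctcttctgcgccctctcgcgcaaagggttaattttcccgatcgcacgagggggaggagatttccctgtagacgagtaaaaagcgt
Elovl5 (chr9:77917115-77917364, plus strand): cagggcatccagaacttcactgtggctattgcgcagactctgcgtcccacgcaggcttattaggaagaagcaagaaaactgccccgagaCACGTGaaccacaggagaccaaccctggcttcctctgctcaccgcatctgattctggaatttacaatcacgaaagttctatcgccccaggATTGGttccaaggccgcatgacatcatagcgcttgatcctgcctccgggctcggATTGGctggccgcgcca
Fads2 (chr19:10101504-10101753, minus strand): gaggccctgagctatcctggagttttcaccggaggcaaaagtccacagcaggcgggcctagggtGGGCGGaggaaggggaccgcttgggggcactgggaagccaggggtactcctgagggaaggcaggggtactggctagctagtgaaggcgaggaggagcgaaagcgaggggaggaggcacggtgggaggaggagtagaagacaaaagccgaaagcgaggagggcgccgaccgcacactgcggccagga
The Elovl6 window held 0 matches to these motifs. That of Elovl5 held 2 CCAAT matches (read as ATTGG) and 1 CACGTG, and that of Fads2 held 1 GGGCGG. No match overlapped another in these windows. Of the windows not shown, that of Fasn held 3 CCAAT matches and that of Acly 4 GGGCGG. For Me1, 1 window held 3 GGGCGG and another 1 CCAAT, and the Acaca window held 0 matches. Of 32851 RefSeq windows of the same length, 33.8% held CCAAT, 32.7% GGGCGG, 6.02% CACGTG and 1.05% TCACNCCAC. A match is a description of letters, and no binding was measured.

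The elongases went opposite ways. Elovl6, which extends palmitate, gave 9.39, 9.34 and 9.39 at E15.5, 7.98, 8.0 and 7.98 at P5 and 6.73, 7.0 and 7.16 at P10. The stages did not overlap, and the P5 arrays were nearly equal. Elovl6 fell by 1.39 ± 0.10 at P5 (2.62-fold lower than at E15.5, adjusted p = 1.34e-05) and by 2.41 ± 0.10 at P10 (5.33-fold lower than at E15.5, adjusted p = 3.95e-07). It was also lower at P10 than at P5 (-1.02 ± 0.10, adjusted p = 0.00131), and all 3 calls held in each of the 19 alternatives run. Elovl5, which extends polyunsaturated fatty acids, gave 10.58, 10.62 and 10.20 at E15.5, 10.98, 11.08 and 10.79 at P5 and 11.34, 10.91 and 10.79 at P10. All 6 postnatal arrays were above the E15.5 arrays. Elovl5 rose at P10 (0.55 ± 0.17, 1.46-fold, adjusted p = 0.0297), while at P5 the difference of 0.48 ± 0.17 just missed the threshold (adjusted p = 0.0524). The P10 call ended without E15.5 array 3 (0.41), P10 array 1 (0.38) or P10 array 2 (0.60), at adjusted p from 0.0504 to 0.0998, and after quantile normalisation (0.34, adjusted p = 0.107). In a fit of the 2 stages alone it just missed the threshold as well (0.55, adjusted p = 0.0523). The P5 difference passed in 8 alternatives, among them both centrings (0.51 and 0.55, adjusted p = 0.0337 and 0.0385).

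Of the 10 genes, Scd2 differed most between E15.5 and both later stages. It gave 10.92, 11.29 and 10.95 at E15.5, 7.71, 7.49 and 7.59 at P5 and 6.88, 6.93 and 7.13 at P10. The 3 stages were apart from one another, with the larger step before P5. Scd2 averaged 7.59 ± 0.11 at P5 and 11.05 ± 0.20 at E15.5 (SD, n = 3 each), a difference of -3.46 ± 0.12 or 11-fold (limma adjusted p = 2e-07). At P10 it was 16.9-fold lower than at E15.5 (-4.07 ± 0.12, adjusted p = 6.34e-08). The further step, P10 against P5, was -0.61 ± 0.12 (adjusted p = 0.0219). That last call ended without P5 array 1 (-0.56), P10 array 1 (-0.57) or P10 array 2 (-0.59), at adjusted p from 0.0655 to 0.0829, and with P5 array 1 as the lone P5 array (-0.73, adjusted p = 0.0798).

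Scd1 gave 9.32, 9.28 and 9.20 at E15.5, 7.32, 7.05 and 7.75 at P5 and 8.67, 7.68 and 8.51 at P10. Every postnatal array was below every E15.5 array, but P10 arrays 1 and 3 were above all P5 arrays, and P10 array 2 lay within the P5 range. Scd1 fell by 1.90 ± 0.26 at P5, 3.72-fold lower than at E15.5 (adjusted p = 0.000579). At P10 it was 1.97-fold lower than at E15.5 (-0.98 ± 0.26, adjusted p = 0.017), a call that ended without E15.5 array 1 (-0.95, adjusted p = 0.0544). P10 against P5 gave 0.92 ± 0.26 with a 95% interval of 0.32 to 1.52. It did not pass (adjusted p = 0.0914), and it did without P10 array 2 (1.22, adjusted p = 0.0197).

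Set against each other on the same array, Scd1 minus Scd2 was -1.60, -2.01 and -1.75 at E15.5, -0.40, -0.44 and 0.16 at P5 and 1.79, 0.75 and 1.38 at P10. Only changes of this difference are read, since its zero has no meaning across probe sets. The stages did not overlap. The difference shifted towards Scd1 by 1.56 at P5 against E15.5, when both genes were lower but Scd2 more so. It shifted by another 1.53 at P10 against P5, when Scd2 fell and Scd1 was higher on average. Over both steps it came to 3.09. A 2-sided exact permutation test of 3 against 3 arrays gave p = 0.1 for each of the 3 pairs of stages (0.1 after adjustment over the 3), which is the smallest p this design allows. Over all 3 stages the exact permutation test of the F statistic gave p = 0.00357, also the smallest possible, for a pair that was chosen with results of these data known. Without any 1 array the shifts stayed between 1.37 and 1.67, 1.29 and 1.81, and 2.86 and 3.37.

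Scd1 and Scd2 stand in 1 cluster on chromosome 19, in the order Scd3, Scd2, Scd4, Scd1 in the RefSeq gene table. Scd3, known from mouse skin and its glands, had 4.96 to 5.27 over the 9 arrays and Scd4, known from mouse heart, 4.54 to 4.78. Scd3 was under percentile 30 on 6 of 9 arrays and Scd4 on 9 of 9. Neither passed in any pair of stages (limma adjusted p from 0.327 to 0.964), with log2 differences from -0.03 to 0.10. Differences of such dim probe sets may be understated. The 4 genes are similar in sequence, and cross-hybridisation between their probe sets was not tested.

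**Figure D3:**
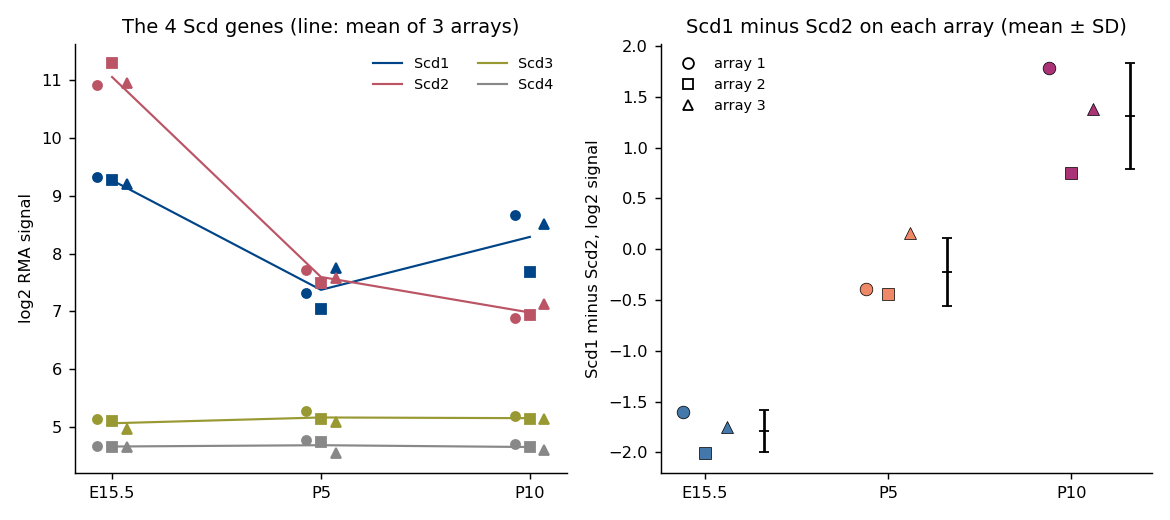
Left, log2 RMA signal of the 4 Scd genes on each array with lines through the stage means. Right, Scd1 minus Scd2 on each array, with mean and SD beside the points. Scd2 falls at each stage, Scd1 is lowest at P5, Scd3 and Scd4 stay under 5.3, and the difference moves upward at each stage without overlap.

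Fads1 and Fads2, neighbouring genes on chromosome 19, rose together. Fads2, the desaturase that opens the polyunsaturated branch, gave 9.98, 9.95 and 9.63 at E15.5, 11.42, 11.42 and 11.41 at P5 and 11.37, 10.69 and 10.73 at P10. It was 2.96-fold higher at P5 than at E15.5 (1.56 ± 0.18, adjusted p = 0.000186) and 2.11-fold higher at P10 than at E15.5 (1.08 ± 0.18, adjusted p = 0.00132). P10 array 1 was at the P5 level and the other P10 arrays were lower. P10 against P5 was -0.49 ± 0.18 (adjusted p = 0.18), and without P10 array 1 it passed (-0.71, adjusted p = 0.0169).

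Fads1, which acts after Fads2, gave 9.80, 9.50 and 9.51 at E15.5, 10.51, 10.38 and 10.61 at P5 and 10.72, 10.10 and 9.90 at P10. All 6 postnatal arrays were above the E15.5 arrays, and P10 array 1 was again the highest of its stage. Fads1 rose by 0.90 ± 0.20 at P5 (1.86-fold, adjusted p = 0.00728) and by 0.64 ± 0.20 at P10 (1.56-fold, adjusted p = 0.0321). The P5 call ended with P5 array 1 as the lone P5 array, at a like difference of 0.90 (adjusted p = 0.0782). The P10 call ended without E15.5 array 2 or 3 (0.59 each, adjusted p = 0.0957 and 0.0981) and after quantile normalisation (0.46, adjusted p = 0.0666), and in a fit of the 2 stages alone (0.64, adjusted p = 0.0637). P10 against P5 was -0.26 ± 0.20 (adjusted p = 0.594). Besides Fads1 and Fads2, P10 array 1 was the highest P10 array for Acly, Acaca, Fasn, Elovl5 and Scd1. It was the lowest for Elovl6, Scd2 and Me1. It was thus the highest of its stage for most of the 10 genes, but not for all.

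The genes whose course over the 9 arrays was most like that of Scd2, by Pearson r among 9659 other genes above the median signal, were Igf2bp1 (r = 0.997), Mef2c, Tbx20, Dcbld2 and Clcn5 (0.995 to 0.996). Igf2bp1, a fetal RNA-binding protein gene, averaged 8.49 in E15.5 cells, 6.32 in P5 cells and 5.98 in P10 cells, and Tbx20, a transcription factor gene known from heart, averaged 9.21, 6.83 and 6.18. Those most like Scd1 were Hmmr (r = 0.973), Ccdc34 (0.965), Ndc80 (0.963), Stmn1 (0.961) and Myc (0.958). Hmmr and Ndc80 encode mitotic spindle and kinetochore proteins. Hmmr averaged 8.14 in E15.5 cells, 6.11 in P5 cells and 7.22 in P10 cells, and Ndc80 8.75, 7.92 and 8.26. These r values describe 9 points in 3 stages of shared arrays.

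Of 5 lists of other lipid genes, those of carbon supply, regulators and droplets held the most genes that rose. Over all genes, 17.9% rose and 17.7% fell at P5 against E15.5, and 20.1% rose and 18.6% fell at P10 against E15.5. In the list of carbon supply and NADPH genes, of 21 measured members 14 rose and 3 fell at P5 against E15.5 (median 0.66, beside 0.03 over all genes), and 15 rose and 3 fell at P10 against E15.5 (median 0.81, beside 0.02). Slc25a1, the carrier that exports citrate for Acly, rose by 2.06 ± 0.14 at P5, and Idh1, a cytosolic source of NADPH, by 1.27 ± 0.09 at P5 and 1.46 ± 0.09 at P10. Pck1 (5.64 ± 0.14 and 6.62 ± 0.14) and Pcx (3.26 ± 0.12 and 3.10 ± 0.12) also rose, and both enzymes serve gluconeogenesis. Me2, a mitochondrial malic enzyme, fell (-1.43 ± 0.19 and -1.49 ± 0.19), as did Acss1 (-0.78 ± 0.17 and -1.09 ± 0.17), a mitochondrial acetyl-CoA synthetase.

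Among 30 measured genes of other chain building, elongation and desaturation steps, 12 rose and 6 fell at P5 against E15.5, and 11 rose and 8 fell at P10 against E15.5. The medians of 0.10 and 0.05 were near those of all genes (0.03 and 0.02). Cyb5a, the electron donor of the desaturases, rose by 1.91 ± 0.06 at P5 and 1.98 ± 0.06 at P10. Oxsm (1.87 ± 0.10 and 1.99 ± 0.10) and Cbr4 (2.02 ± 0.09 and 2.19 ± 0.09), of mitochondrial fatty acid synthesis, rose too. Mlycd, whose enzyme removes malonyl-CoA, rose by 1.96 ± 0.09 and 2.27 ± 0.09. Degs1, the desaturase of sphingolipids, fell (-1.20 ± 0.08 and -1.94 ± 0.08), and so did Fads3 (-1.11 ± 0.08 and -1.33 ± 0.08), the third gene of the Fads family, while Fads1 and Fads2 rose.

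In the list of lipogenic regulators, of 25 measured members 14 rose and 3 fell at P5 against E15.5 (median 0.70). At P10 against E15.5, 16 rose and 3 fell (median 0.94). The list was not split by whether a gene promotes or opposes synthesis, so its counts give no direction of synthesis. Its smallest adjusted p in both comparisons were those of Pparg (3.55 ± 0.06 and 3.62 ± 0.06) and Ppara (3.46 ± 0.10 and 3.94 ± 0.10), which rose. Mlxipl, which encodes ChREBP, rose by 1.65 ± 0.15 at P5 and 1.67 ± 0.15 at P10, and Nr1h3, which encodes LXR alpha, by 2.31 ± 0.21 at P5. Srebf1 gave 8.0, 8.06 and 7.77 at E15.5, 7.97, 7.88 and 7.84 at P5 and 8.15, 8.38 and 8.22 at P10. Its difference was -0.05 ± 0.10 at P5 against E15.5 (adjusted p = 0.752). At P10 against E15.5 it was 0.31 ± 0.10 (adjusted p = 0.0334), a call that ended without E15.5 array 1 (0.34), E15.5 array 3 (0.22), P10 array 2 (0.24) or P10 array 3 (0.32), at adjusted p from 0.054 to 0.114, in a fit of the 2 stages alone (0.31, adjusted p = 0.0576), and with an intensity trend and robust prior variance (0.31, adjusted p = 0.0707). Mbtps1, the protease that activates SREBPs, fell (-0.95 ± 0.20 and -1.43 ± 0.20), and Insr, the insulin receptor gene, fell by 0.84 ± 0.13 at P5 and 1.67 ± 0.13 at P10. At P10 against P5, 6 of the 25 rose and 1 fell, where 2.76% of all genes rose and 2.89% fell. Irs2 (0.84 ± 0.11), Mlx, the partner of ChREBP (0.84 ± 0.10), and Prkaa2 (1.43 ± 0.25) were among those that rose.

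In the list of glyceride synthesis and lipid droplet genes, of 30 measured members 18 rose and 2 fell at P5 against E15.5 (median 0.48), and 14 rose and 4 fell at P10 against E15.5 (median 0.34). Plin2, a droplet coat protein gene, rose by 2.02 ± 0.12 at P5, Pnpla2, the first lipase of triglyceride breakdown, by 2.34 ± 0.17, and Fitm1, of droplet formation, by 3.60 ± 0.21 at P10. Dgat1, which makes triglyceride, fell (-0.90 ± 0.12 and -1.29 ± 0.12). Of 16 measured genes of uptake and binding, 8 rose and 3 fell at P5 against E15.5 (median 0.40), and 7 rose and 3 fell at P10 against E15.5 (median 0.06). Slc27a5, a fatty acid and bile acid ligase gene of liver, rose by 2.06 ± 0.09 and 2.03 ± 0.09. Fabp7, a fatty acid binding protein gene known from brain, fell (-3.21 ± 0.11 and -3.30 ± 0.11). At P10 against P5, 2.76% of all genes rose and 2.89% fell. Of 21 measured carbon supply and NADPH genes 3 rose and 0 fell, and of 30 chain building genes 0 rose and 2 fell. Of 30 droplet genes 1 rose and 0 fell, and of 16 uptake genes 0 rose and 1 fell.

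**Figure D4:**
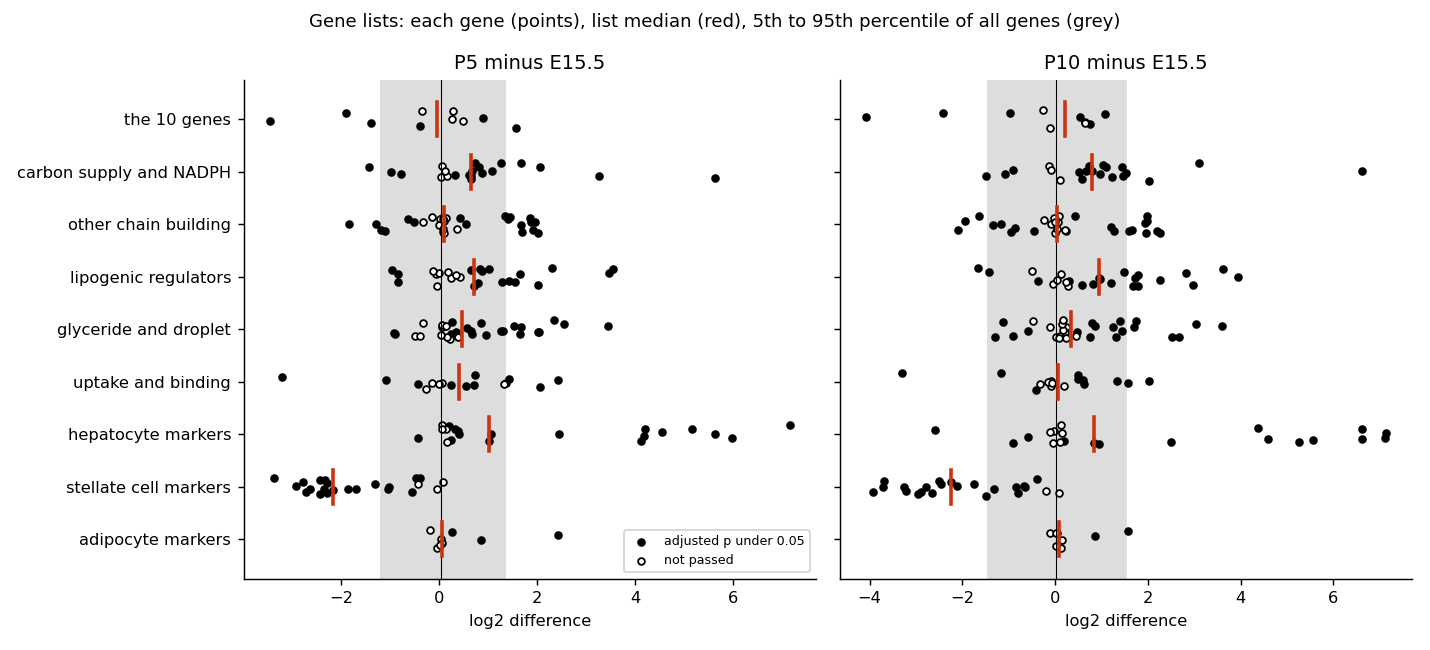
Log2 differences of every measured gene of 9 lists at P5 and P10 against E15.5. Points are genes (filled where adjusted p was under 0.05), red bars are list medians, and grey spans percentiles 5 to 95 of all genes. The 10 genes spread to both sides, regulators and carbon supply genes lie mostly above 0, and stellate cell markers lie mostly below 0.

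Markers of cell types were counted beside the share of all genes. Over all genes, 17.9% rose and 17.7% fell at P5 against E15.5. At P10 against E15.5 these shares were 20.1% and 18.6%, and at P10 against P5 they were 2.76% and 2.89%. Hepatocyte markers had a mean log2 signal of 9.59 to 9.73 on the E15.5 arrays, 11.80 to 11.96 at P5 and 11.85 to 12.01 at P10. Of 21 measured, 16 rose and 1 fell at P5 against E15.5, and 12 rose and 3 fell at P10 against E15.5, with 4 risen and 5 fallen at P10 against P5. Hepatic stellate cell markers lay at 9.45 to 9.63, 7.72 to 8.03 and 7.42 to 7.64, and of 23 measured 20 fell at P5 and 21 at P10 against E15.5, with 0 risen, and 5 fell at P10 against P5. Cell cycle genes lay at 9.51 to 9.72, 8.52 to 9.07 and 9.12 to 9.31, and of 15 measured 11 fell and 0 rose at P5 against E15.5, 4 fell and 2 rose at P10 against E15.5, and 3 rose at P10 against P5. Their part in the differences of the 10 genes was not tested.

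Markers of other cell types were counted in the same way, beside the 17.9% of all genes that rose and 17.7% that fell at P5 against E15.5, and the 20.1% and 18.6% at P10 against E15.5. The 2 of 12 neural, 2 of 12 macrophage and 3 of 15 sinusoidal endothelial markers that rose at P5 were near the share of all genes. Adipocyte markers lay at 5.58 to 5.63, 5.95 to 6.09 and 5.91 to 5.99, and of 8 measured 3 rose at P5 and 2 at P10 against E15.5, led by Fabp4 (2.43 ± 0.22 and 1.57 ± 0.22), which endothelial cells also express. Neural and Schwann cell markers lay at 6.64 to 6.68, 6.27 to 6.41 and 6.19 to 6.25, with 2 risen and 4 fallen of 12 at P5 and 1 and 3 at P10 against E15.5. Mesothelial markers lay at 8.20 to 8.27, 9.05 to 9.43 and 7.61 to 7.81, with 6 risen and 1 fallen of 9 at P5 and 2 and 5 at P10 against E15.5. Cholangiocyte markers lay at 6.14 to 6.36, 6.95 to 7.08 and 6.33 to 6.38, with 3 and 2 of 6 risen at P5 and P10 and 0 fallen. Sinusoidal endothelial markers had 3 risen and 1 fallen of 15 at P5 against E15.5 and 0 and 1 at P10. Their median difference at P5 was 0.89 all the same, beside 0.03 over all genes. P5 arrays 2 and 3 were high (7.97 and 8.28) and P5 array 1 was not (6.59), so few passed. Erythroid markers lay at 6.88 to 7.66, 6.53 to 6.63 and 6.55 to 6.77, with 6 of 8 fallen in both comparisons with E15.5 and 1 risen, at P10. Macrophage markers lay at 5.54 to 5.59, 5.53 to 5.70 and 5.49 to 5.61, with 2 risen and 1 fallen of 12 at P5 and 1 of each at P10.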

How the data were processed

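The 9 samples were Trizol extracts of RNA, hybridised as biotin-labelled cRNA, per the labels' protocols. The authors deposited 1 log2 value per probe set. Per the submitters' processing notes, RMA, Affymetrix Expression Console and version 2.0 of Transcriptome Analysis Console were used. RMA quantile-normalises arrays, which can compress differences near both ends of the scale. For the probe annotation, the genome build is not given by any source used here. The number of arrays limits the precision.

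Of 35556 probe sets, 21789 have 1 gene symbol, 1621 have several and 12146 are not listed in the annotation. Symbols were updated by Entrez identifier for 21698 (RefSeq, GRCm38.p6), giving 19938 genes. All 9 arrays entered 1 model per gene, with a mean for each stage and no covariate, in limma 3.58.1 under R 4.3.3 (degrees of freedom: 6 of the residuals, 2.22 of the prior). The fit was tested on simulated data. Tests are 2-sided, with Benjamini-Hochberg adjustment over all genes of a contrast. Figures were drawn with matplotlib 3.10.9 and permutations run in Python 3.11.15. The 10 genes, the lists (15 lists, written from general knowledge) and the tests were chosen with earlier results of these data known. The rule names all 10 genes, per list and contrast up to 4 called genes with the smallest adjusted p and up to 2 in the other direction, Alb, Lrat, Cxcl12, Srebf1, Mlxipl, and the 5 genes most like Scd1 and Scd2. Scd3 and Scd4, of the list of chain building genes, were added for their place beside Scd1 and Scd2 after their values were seen. Cxcl12, the gene of the sort, averaged 10.98 in E15.5 cells, 10.17 in P5 cells and 10.13 in P10 cells.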

Additional observations from a re-analysis of the deposited data

How the results depend on the processing

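Alternatives were quantile normalisation, centring each array (on its median gene, or on that of 61 ribosomal protein genes), a filter or floor at percentile 30, the mean over probe sets, an intensity trend with robust prior variance, the 2 compared stages alone, the replicate number as a block, each array left out, and, chosen after seeing the data, P5 array 1 as the lone P5 array. Quantile normalisation moved the median of all genes at P10 against E15.5 by 0.13. It called 5 of the 10 genes there, against 7, and 11330 of all genes, against 7716. At P5 against E15.5 it called 7 of the 10 genes, against 6, and 9567 of all genes, against 7089. Over all named genes, 4363 comparisons with an alternative kept their side of the threshold, 224 lost the call and 43 gained it. In 1 more, with a call in at least 1 fit, the direction turned: Cidea at P5 against E15.5 was 0.26, and -0.077 with the floor. Differences called in neither fit counted as kept even where the sign changed. Alb at P10 against E15.5 was such a case, at -0.01 and at 0.08 after centring on the median gene. Leaving out 1 array called 5 to 7 of the 10 genes at P5 against E15.5, 6 to 8 at P10 against E15.5, 1 to 3 at P10 against P5 and 5 to 8 over all stages. At P10 against P5, where 2 were called, 1 was with the replicate block, where Scd2 did not pass (-0.61, adjusted p = 0.0586), and 1 with P5 array 1 as the lone P5 array. At P10 against E15.5, that last alternative is the same fit as the 2 stages alone. Fasn at P5 did not pass after centring on ribosomal protein genes (-0.32, adjusted p = 0.0524). Arrays sharing a replicate number were no more alike than others (r of residuals from -0.08 to 0.07, 0 of 9 pairs over 0.1), so they were not paired. With the replicate block 7, 8 and 9 of the 10 genes were called at P5 against E15.5, at P10 against E15.5 and over all stages. Over all genes, the floor called 11119, 11755 and 11684 in those 3 tests, against 7089, 7716 and 7634. The floor was each array's own percentile 30, at 5.29 to 5.31 for E15.5, 5.15 to 5.22 for P5 and 5.13 to 5.16 for P10. Values under it took that level, which thus differed by stage. What this added to the counts was not tested. At P10 against P5, 1126 genes were called, 709 in the 2 stages alone and 586 to 1385 with 1 array left out; the cause was not tested. The shifts of Scd1 minus Scd2 kept their sign throughout, from 1.37 to 1.67 (P5 against E15.5), 2.86 to 3.37 (P10 against E15.5) and 1.29 to 1.81 (P10 against P5) with 1 array left out.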
